A study of Mus musculus with 4 samples.

Results

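The EGF receptor family and its ligands were followed in nestin-GFP-positive cells sorted from the mouse dentate gyrus, a part of the hippocampus where new neurons form throughout life. The set held 9 of the 31557 gene symbols counted: the receptors Egfr, Erbb2, Erbb3 and Erbb4, the ligands Hbegf, Nrg1, Nrg2 and Btc, and the receptor inhibitor Errfi1. They were listed by name, with earlier results of these data known, and were read in wells with 500 to 6000 detected genes across cell classes defined by marker genes. All animals were male nestin-GFP reporter mice that had received an injection into the cerebral ventricle at 2 months of age and were analysed at 3 months. In 4 mice the injectate was a miR-132 antagomir, an oligonucleotide carrying cholesterol and built from locked nucleic acids (LNA), which is meant to block the microRNA miR-132. They were given 2 µl at a concentration of 0.33 nmol/ml, with artificial cerebrospinal fluid as the vehicle. In the remaining 4 mice a scrambled LNA oligonucleotide was used in the same vehicle, at a dose the sources do not state. The reporter marks every cell in which the nestin promoter fragment is active, so the sort held glial and vascular cells beside neural stem cells, and 96 cells were sorted from each mouse.

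EGF receptor family proteins are receptor tyrosine kinases of the cell surface that work as pairs. EGF-like ligands such as HB-EGF and betacellulin are cut from the membrane by metalloproteases and bind EGFR or ERBB4, whereas neuregulins bind ERBB3 and ERBB4. ERBB2 binds no known ligand and ERBB3 has a weak kinase, so both act mainly in pairs with other members, and MIG6, the product of Errfi1, binds the kinase of the active receptor and blocks it. In the adult brain Egfr is known from activated neural stem cells and their dividing progeny, Erbb3 and Erbb4 from the oligodendrocyte lineage, and Erbb4 also from interneurons.

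The microRNA sequences are shown because the injected oligonucleotide was directed at miR-132, whose seed (bases 2 to 8, in capitals) is shared with miR-212. Both are RefSeq entries of GRCm38.p6, on the plus strand at chr11:75173723-75173744 for miR-132-3p and at chr11:75173443-75173464 for miR-212-3p.
mmu-miR-132-3p: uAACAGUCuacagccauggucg
mmu-miR-212-3p: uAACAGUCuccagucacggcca
The complement of the seed, GACTGTT, was present in the longest annotated 3′ UTR of 3 of the 9 members, Egfr, Hbegf and Btc, and in 10.7% of the 21028 genes with such a UTR (GENCODE M21, GRCm38). The longer match GACTGTTA was present in 2.35% of these genes, and among the members in Hbegf and Btc. Egfr held 2 matches in a UTR of 6303 bases, Btc 2 in 2069 bases and Hbegf 1 in 1456 bases, whereas the median UTR had 960.5 bases. The Egfr matches lay on the plus strand at chr11:16914948-16914971 and chr11:16917683-16917706, and the Btc matches on the minus strand at chr5:91358271-91358294 and chr5:91357429-91357452. Capitals mark the seed match, and both Btc matches are followed by the a of the longer one.
Egfr, first match: aaggcttgataagggGACTGTTgg
Egfr, second match: accccaggatataatGACTGTTtc
Btc, first match: aacagcacaggaagaGACTGTTag
Btc, second match: tatgttgtttatataGACTGTTaa
Such a match is a run of letters only, and binding of the microRNA was not measured.

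Of 768 wells, 716 passed (353 of antagomir and 363 of scrambled mice), with a median of 650777 counts and 2778.5 detected genes per well. Sums over the kept wells of a mouse ran from 43996495 to 69191485 counts. Clusters made without the 9 genes gave 302 oligodendrocyte-like, 169 radial glia-like (RGL) or astrocyte-like, 87 endothelial-like, 82 mural-like, 25 neuroblast-like and 12 fibroblast-like cells, with median depths of 829784, 518584, 565180 and 530922 counts in the first 4 classes. A cluster of 39 cells led by Frzb, Slc38a1, Hmgb2, Ccnd2 and Tnc stayed unnamed. By the marker lists, 27 of its cells were closest to RGL or astrocyte, 7 to neuroblast and 5 to oligodendrocyte precursor cells. In the RGL or astrocyte-like class all 17 listed markers had counts in at least 25% of cells, and the class cannot separate stem cells from astrocytes. Mature neurons formed no class, so the interneurons known for Erbb4 and the neurons known for neuregulins are outside what was measured.

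The receptors were divided between the glial classes. Erbb3 was at the highest level in oligodendrocyte-like cells, Egfr in RGL or astrocyte-like cells and Erbb4 at a lower level in oligodendrocyte-like cells, and 337 of the 716 wells (47.1%) held at least 1 count of any receptor. Levels are CPM (counts scaled to the total of the sum) of the counts summed per class and mouse, given as mean ± SD over 8 mice. Because the classes came from the same cells, they are a description with no test.

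Egfr, the receptor for EGF, TGF-alpha and HB-EGF, averaged 154 ± 76.1 CPM in RGL or astrocyte-like cells, where 70 of 169 cells (41.4%, Wilson 95% interval 34.3 to 49.0%) held at least 1 count. The 8 mice ran from 49.2 to 276 CPM, and their shares of cells with a count averaged 40.3 ± 9.85%. Intervals and upper limits on shares, here and below, pool the cells of the mice and leave out the spread between mice. In cells of 2 other classes Egfr was close to 0: 2 of 302 oligodendrocyte-like cells (0.662%) and 1 of 87 endothelial-like cells (1.15%) held a count, and none of the 302 oligodendrocyte-like cells held 10 or more. Whether these counts were stray reads or rare transcripts was not tested, and the oligodendrocyte-like cells were the more deeply sequenced.

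Within the RGL or astrocyte-like class, Egfr counts were in 44.2% of the 86 cells of one cluster and in 59.6% of the 47 cells of another. The third cluster held 36 cells in which few genes were detected (median 858.5) and mitochondrial genes took 11.5% of counts, and Egfr was counted in 11.1% of them. Egfr was found at 10 counts or more in 47.9% of cells that also held 10 or more of Nes, the nestin gene, and in 33.9% of the others, with the higher share in 6 of 8 mice. The cells with Nes were more deeply sequenced, at medians of 622034 and 473846 counts for cells with and without, and at 1 count or more the shares were 48.5 and 36.9%, with the higher share in 5 of 8 mice. In the unnamed cluster 15 of 39 cells held Egfr counts, 13 of them among the 27 cells closest to RGL or astrocyte, 2 among the 7 closest to neuroblasts and 0 of the 5 closest to oligodendrocyte precursors.

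Outside these clusters Egfr counts were in 11 of 82 mural-like cells (13.4%), 3 of 25 neuroblast-like cells (from 3 mice) and 1 of 12 fibroblast-like cells. In mural-like cells the level differed widely between mice. It was 207 CPM in mouse 8, 145 in mouse 6 and 5.42 in mouse 4 among the antagomir mice and 88.8 CPM in mouse 1 among the scrambled mice, and at most 0.51 CPM in each of the other 4 mice. The median over the 8 mice was 2.96 CPM beside a mean of 55.9. All 7 mural-like cells with 10 or more Egfr counts held at least 3 mural markers, among them Pdgfrb in 7 and Rgs5 in 6. None held Aldoc, Gja1, Aqp4 or Gfap, but these genes were also rare in the 75 other mural-like cells. There Aldoc was in 3 cells and Gja1, Aqp4 and Gfap in 0. Both sets of cells held a median of 2 RGL or astrocyte markers. Of the 7 cells with Egfr, 0 held 3 or more such markers, against 15 of the 75 others. Egfr was higher in RGL or astrocyte-like than in mural-like cells in 8 of 8 mice, with ranges over mice that overlapped.

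Erbb3, a neuregulin receptor with a weak kinase of its own, averaged 120 ± 56.3 CPM in oligodendrocyte-like cells. Of these, 181 of 302 cells held an Erbb3 count (59.9%, interval 54.3 to 65.3%), or 59.9 ± 13.8% over mice. It was the member with the sharpest class boundary: 3 of 169 RGL or astrocyte-like cells and 1 of 87 endothelial-like cells held counts, and 0 of 82 mural-like cells, which allows a share of up to 3.66%. Outside the oligodendrocyte-like class and the unnamed cluster the level was at most 0.05 CPM in any class. Its lowest mouse in oligodendrocyte-like cells, at 56.6 CPM, stood above every mouse in the other classes. In the unnamed cluster, Erbb3 counts were in 3 cells, all among the 5 closest to oligodendrocyte precursors. The 3 oligodendrocyte-like clusters held Erbb3 counts in 64.2%, 54.7% and 67.7% of their cells.

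Erbb4, a neuregulin receptor with an active kinase that also binds betacellulin and HB-EGF, averaged 31.5 ± 16.1 CPM in oligodendrocyte-like cells, with counts in 81 of 302 cells (26.8%, interval 22.1 to 32.1%). Divided by exon length, which is needed to set one gene against another, oligodendrocyte-like cells held 19.997 CPM per kb of Erbb3 and 2.55 CPM per kb of Erbb4. RGL or astrocyte-like cells averaged 9.11 ± 17.5 CPM of Erbb4 from 5 cells of 3 mice, and oligodendrocyte-like cells were higher in 7 of 8 mice. No endothelial-like, mural-like, neuroblast-like or fibroblast-like cell held an Erbb4 count, which allows up to 3.45% of the 87 endothelial-like cells. All 5 cells of the unnamed cluster closest to oligodendrocyte precursors held Erbb4. Across the oligodendrocyte-like clusters the share was 21.1%, 27.7% and 45.2%. At 10 counts or more, Erbb4 was in 25.9% of oligodendrocyte-like cells with Erbb3 and in 15.7% of those without, with the higher share in 7 of 8 mice. At 1 count or more the shares were 29.3 and 23.1%, with the higher share in 5 of 8 mice.

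Erbb2, the receptor with no known ligand of its own, was sparse, with counts in 24 of 716 wells. Its highest class mean was 59.3 ± 89.7 CPM in endothelial-like cells, from 6 of 87 cells in 4 mice. It averaged 10.3 ± 13.2 CPM in RGL or astrocyte-like cells from 9 cells, and 1 oligodendrocyte-like cell held a count. The class order of Erbb2 therefore rests on few cells, and most wells with Erbb3 held no Erbb2 count, which at this depth does not show that the transcript was absent.

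**Figure D1:**
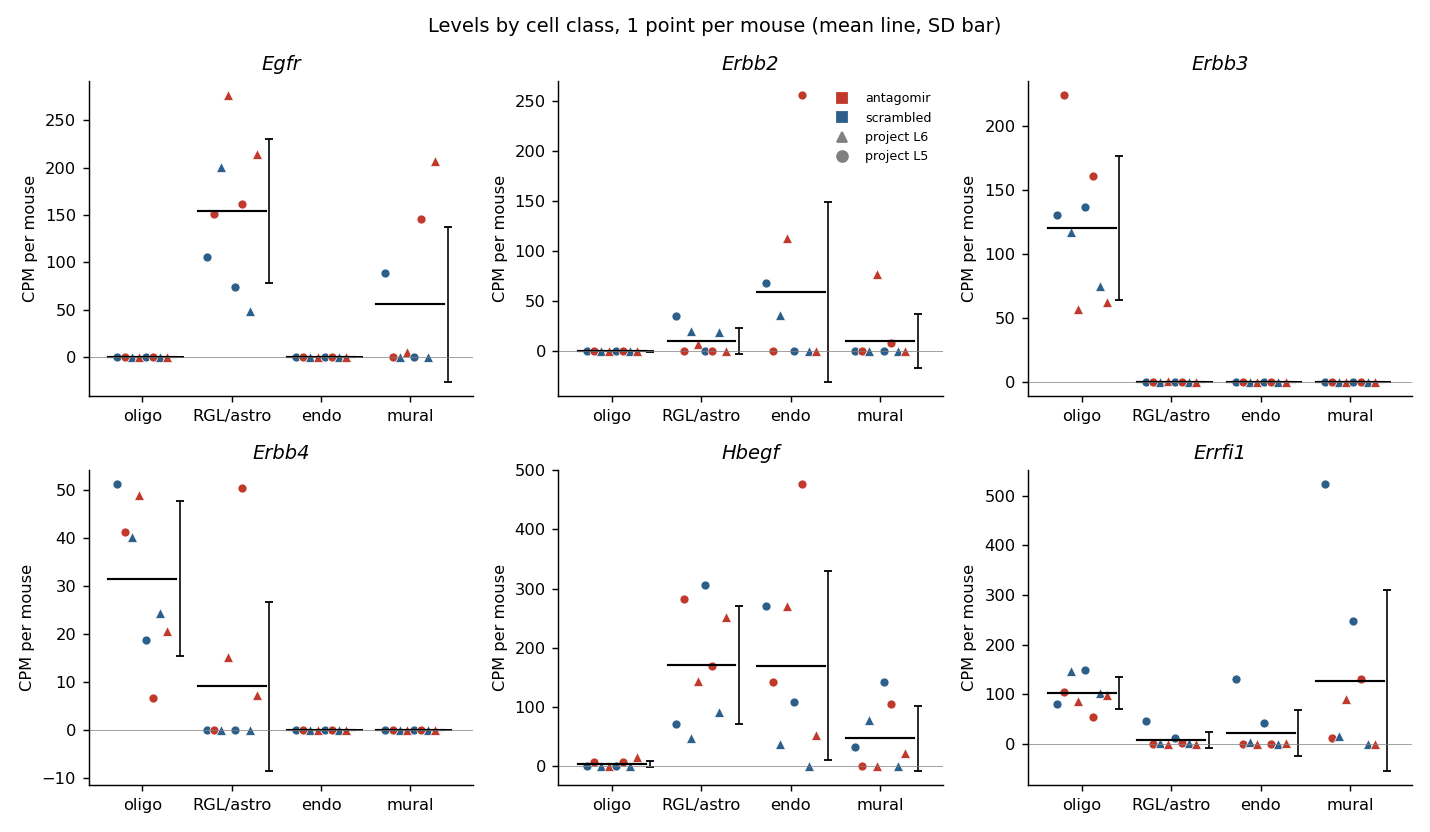
CPM of Egfr, Erbb2, Erbb3, Erbb4, Hbegf and Errfi1 in the oligodendrocyte-like, RGL or astrocyte-like, endothelial-like and mural-like classes. Each point is 1 mouse and the line and bar are the mean and SD over mice. Erbb3 is separate in oligodendrocyte-like cells (56.6 to 224 CPM), whereas Egfr is at 49.2 to 276 CPM in RGL or astrocyte-like cells and scattered in mural-like cells.

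Among the ligands only Hbegf reached 20 CPM in any class. Hbegf, which encodes a membrane-bound EGF-like growth factor, averaged 171 ± 99.4 CPM in RGL or astrocyte-like cells, with counts in 56 of 169 cells (33.1%, interval 26.5 to 40.5%). It averaged 170 ± 160 CPM in endothelial-like cells, with counts in 33 of 87 cells (37.9%, interval 28.4 to 48.4%). The order of these classes could not be told: RGL or astrocyte-like cells were higher in 5 of 8 mice. Mural-like cells averaged 47.5 ± 54.6 CPM from 7 cells, and oligodendrocyte-like cells 3.85 ± 5.79 CPM from 4 of 302 cells. All 32 endothelial-like cells with 10 or more Hbegf counts held at least 3 endothelial markers, and 1 held 3 or more RGL or astrocyte markers as well.

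Most cells with either Hbegf or Egfr in this class lay in the same cluster of 86 cells, 44 of the 56 with Hbegf and 38 of the 70 with Egfr. The shares parted in the cluster of 47 cells, where Hbegf was in 8.51% and Egfr in 59.6%, whereas Hbegf was in 51.2% of the 86 cells. Of those 47 cells 74.5% carried the project label L6 of the deposited well table, and the part of that label in the difference was not tested. At 10 counts or more, 19 RGL or astrocyte-like cells held both genes: Hbegf was in 29.7% of the cells with Egfr and in 31.4% of the cells without.

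The other ligands were near the limit of detection. Nrg2, a neuregulin, had counts in 37 wells, 18 of them RGL or astrocyte-like, where it averaged 3.41 ± 3.60 CPM. Nrg1, the ligand known for myelination and synapse formation, had counts in 11 wells, 3 of them with 10 or more. Btc, which encodes betacellulin, had counts in 10 wells, 8 oligodendrocyte-like and 2 RGL or astrocyte-like. Tgfa, the ligand TGF-alpha of the EGF receptor and not among the 9 members, was counted in 178 of 302 oligodendrocyte-like cells at 97.4 ± 27.1 CPM and in 22 of 87 endothelial-like cells. It was the one gene of the 5 measured further ligands that reached 20 CPM in any class. Oligodendrocyte-like cells thus held counts of Tgfa while Egfr was at 0.0075 CPM in them.

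**Figure D2:**
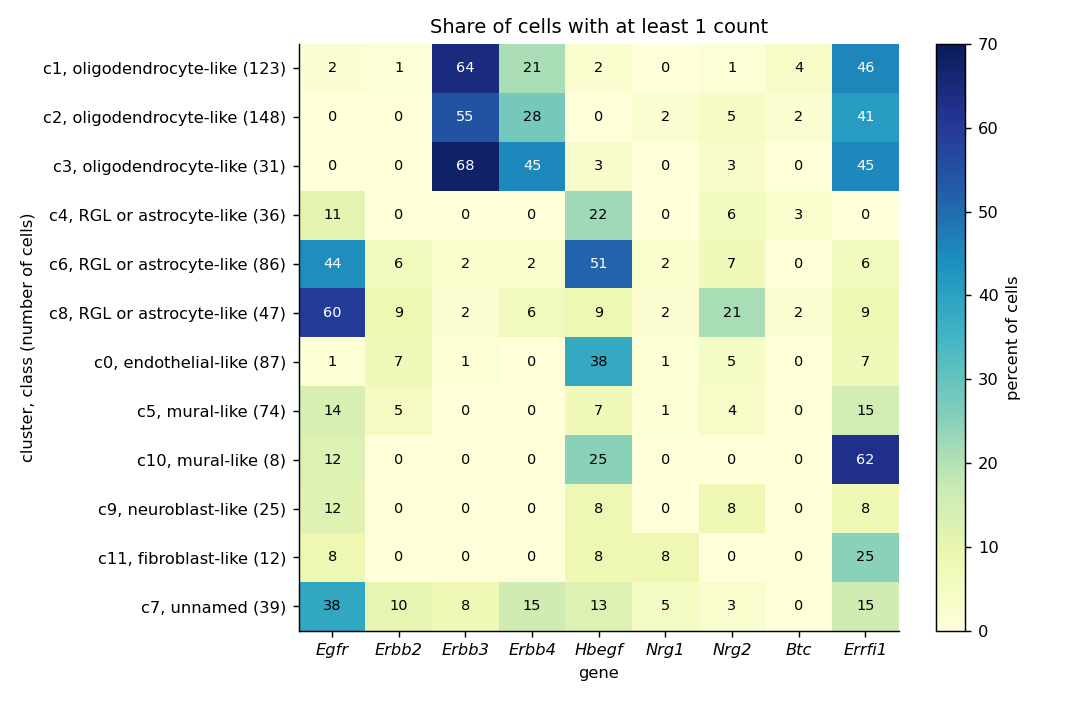
Percent of cells with at least 1 count of each member in every cluster, with clusters grouped by class. Egfr and Hbegf have different shares in the RGL or astrocyte-like clusters (59.6% and 8.51% in one of them), whereas Erbb3 is at 54.7 to 67.7% in the 3 oligodendrocyte-like clusters.

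Errfi1, the inducible inhibitor, averaged 103 ± 32.4 CPM in oligodendrocyte-like cells and was counted in 131 of 302 cells (43.4%, interval 37.9 to 49.0%). In mural-like cells it averaged 127 ± 182 CPM from 16 of 82 cells. Mural-like cells were higher in 4 of 8 mice, so the spread between mice left no order between these classes. Endothelial-like cells averaged 22.0 ± 46.1 CPM from 6 of 87 cells and RGL or astrocyte-like cells, the class with the most Egfr, 7.64 ± 15.9 CPM from 9 of 169 cells. Of the 15 mural-like cells with 10 or more Errfi1 counts, 14 held Pdgfrb and 7 held Acta2, the smooth muscle actin gene. At 10 counts or more Errfi1 was in 46.7% of the mural-like cells with Acta2 and in 11.9% of the others. The share was higher in cells with Acta2 in 2 of 8 mice, where a mouse with no such cell counts as not higher. In the small mural-like cluster led by Acta2 and Myh11, 5 of 8 cells held Errfi1, at 1274 CPM of the summed counts, of which 1 cell gave 61.9%; the 5 cells came from 2 mice.

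In oligodendrocyte-like cells, Errfi1 at 10 counts or more was in 51.1% of the cells that held as many counts of the immediate early gene Fos and in 35.0% of those that did not, with the higher share in 7 of 8 mice. At 1 count or more Errfi1 was in 50 of the 100 cells with Fos and in 40.1% of the others, with the higher share in 6 of 8 mice. Erbb3 was in 65.9% of cells with Fos and 48.6% of cells without at 10 counts or more, and in 65.0 and 57.4% at 1 count or more, with the higher share in 5 and 2 of 8 mice, so no steady difference was seen. Fos is induced by tissue dissociation as well as by signalling, and its part in these shares was not tested.

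Of the 11496 genes at 20 CPM or more in at least 1 class, those with the pattern most like each member were named from Pearson correlations of log2(CPM + 1) over 44 sums, each of 1 class in 1 mouse, in 7 classes. The sums of a mouse share that mouse and the sums of a class share its clustering, so no test was made. Bfsp2, Gjc3 and Dusp26 followed Erbb3 with correlations of 0.99 each. Erbb4 had Unc5c, Ptprn and Ubash3b at 0.88 to 0.91, and stood at 0.84 with Erbb3. For Egfr these were Ramp1, Soat1 and Me3 at 0.74 to 0.79, and its correlation with Erbb3 was -0.37. Hbegf was followed by Trib1, Nebl and Slc31a1 at 0.61 to 0.62, Errfi1 by Ppp1r14a, Ypel2 and Pogk at 0.66 to 0.70, and Erbb2 by Pdgfd, Ctla2b and Fmo2 at 0.56 to 0.63.

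The genes of the pathway around the receptors were counted in all 4 large classes. Of 26 adaptors and kinases, 15 averaged 20 CPM or more in oligodendrocyte-like cells, 15 in RGL or astrocyte-like cells, 21 in endothelial-like cells and 19 in mural-like cells. Gab1, a docking protein of activated receptors, averaged 286 ± 58.1 CPM in oligodendrocyte-like and 450 ± 230 CPM in mural-like cells, and the kinase gene Akt2 averaged 460 ± 160 CPM in RGL or astrocyte-like cells. Of 10 genes of ligand shedding, 6, 4, 7 and 6 reached this level in the same order of classes, and the sheddase gene Adam10 averaged 77.9 ± 27.0 CPM in oligodendrocyte-like and 242 ± 105 CPM in endothelial-like cells. Feedback and turnover genes reached it in 8, 11, 9 and 12 of 20 cases. Lrig1, an inhibitor that marks the receptor for degradation, averaged 98.4 ± 60.3 CPM in RGL or astrocyte-like cells. Of 14 transcription targets, 7, 4, 7 and 9 reached it, among them the ETS factor genes Etv1, with 168 ± 78.1 CPM in oligodendrocyte-like cells, and Etv5, with 143 ± 67.3 CPM in RGL or astrocyte-like cells. Of the 8 partner proteins of ERBB4, 5, 6, 3 and 2 did so.

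Treatments were compared with edgeR's quasi-likelihood test on counts summed per mouse, at a threshold of adjusted p under 0.05. After the antagomir, no member that passed the filter on low counts differed from the scrambled mice past this threshold. Nrg1 passed that filter in no population, so these tests did not cover it. The threshold was passed by 0 of 15447 genes in all cells, by 0 of 10778 in oligodendrocyte-like cells and by 0 of 10090 in RGL or astrocyte-like cells (0% of genes tested in each). The counts at an unadjusted p under 0.05 were 280, 214 and 159 genes, and DESeq2 called 10, 13 and 8 genes, no member among them. A sum over all cells of a mouse cannot tell fewer cells of a type from less RNA per cell. Shares of cells with at least 1 count are therefore given beside the levels in a class.

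In CPM the groups overlapped for every member in all cells and in each of the 4 large classes, beside 1.95% of genes without overlap in all cells, 2.19% in oligodendrocyte-like cells and 2.42% in RGL or astrocyte-like cells.

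Egfr in RGL or astrocyte-like cells was at 151, 276, 162 and 214 CPM in the antagomir mice (mice 2, 4, 6 and 8), against 106, 200, 73.8 and 49.2 CPM in the scrambled mice (mice 1, 3, 5 and 7). The groups overlapped, since scrambled mouse 3 was above 2 antagomir mice. Each antagomir mouse was above the scrambled mouse of its own sort day and project. The deviations of such paired mice from their group means correlated weakly over genes in this class, at 0.01 to 0.06. The log2 difference was 0.89 (SE 0.45, 95% interval -0.09 to 1.88, adjusted p = 1.00, edgeR). The group means were 201 ± 57.2 and 107 ± 66.2 CPM for antagomir and scrambled mice (SD, n = 4 each). Egfr counts were in 46.4 ± 5.37% of these cells in antagomir and 34.3 ± 10.02% in scrambled mice, with overlap. The clusters of the class were not evenly filled by treatment: antagomir cells made up 68.1% of the cluster with Egfr in 59.6% of cells, 53.5% of the one with 44.2% and 44.4% of the one with 11.1%, and the part of this in the difference was not tested. Within projects the log2 difference was 0.97 in L6 and 0.77 in L5, and within sort days 1.59 on day 2 and 0.45 on day 1. Summed over all cells, Egfr was at 22.1, 115, 59.7 and 57.0 CPM in antagomir mice, against 38.2, 33.3, 13.3 and 19.0 CPM in scrambled mice, a log2 difference of 1.26 (SE 0.50, adjusted p = 1.00). Antagomir mouse 4 was the highest and mouse 2 lay within the scrambled range. RGL or astrocyte-like cells made up 26.6 ± 11.6% of the antagomir and 20.8 ± 6.87% of the scrambled wells, with 43.3% in mouse 4, and the part of this share in the sum over all cells was not tested.

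Hbegf in RGL or astrocyte-like cells was at 282, 145, 169 and 252 CPM in antagomir mice, against 71.5, 48.0, 306 and 90.8 CPM in scrambled mice. Scrambled mouse 5 was the highest of all 8, and so above antagomir mouse 6 of its own sort day and project. The other 3 scrambled mice lay below every antagomir mouse. The log2 difference was 0.68 (SE 0.57, 95% interval -0.55 to 1.91, adjusted p = 1.00, edgeR), with 1.48 within L6 and 0.23 within L5, and 0.07 on day 2 and 1.81 on day 1. It ran from 0.40 to 1.58 when each mouse was left out in turn, with 1.58 without scrambled mouse 5. Hbegf counts were in 37.9 ± 10.9% of these cells in antagomir and 32.0 ± 15.3% in scrambled mice. In endothelial-like cells the groups overlapped as well, at 236 ± 183 CPM in antagomir and 104 ± 119 CPM in scrambled mice. Over all cells Hbegf averaged 82.5 ± 24.5 CPM in antagomir and 44.4 ± 29.1 CPM in scrambled mice, a log2 difference of 0.85 (SE 0.48, adjusted p = 1.00, edgeR).

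Erbb3 in oligodendrocyte-like cells was at 224, 56.6, 161 and 62.5 CPM in antagomir mice, against 130, 117, 136 and 75.1 CPM in scrambled mice. The antagomir mice held both the highest and the lowest value. The means were 126 ± 80.9 and 115 ± 27.6 CPM in antagomir and scrambled mice, and the log2 difference was 0.12 (SE 0.45, 95% interval -0.88 to 1.12, adjusted p = 1.00, edgeR). The direction differed between projects, with -0.68 within L6 and 0.49 within L5, a difference that was not tested. Erbb3 counts were in 58.6 ± 18.6% of these cells in antagomir and 61.2 ± 9.79% in scrambled mice. Erbb4 averaged 29.4 ± 19.3 CPM in antagomir and 33.6 ± 14.8 CPM in scrambled mice, with a log2 difference of -0.23 (SE 0.61, adjusted p = 1.00, edgeR). Its counts were in 24.9 ± 5.59% of cells in antagomir and 28.3 ± 4.02% in scrambled mice.

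**Figure D3:**
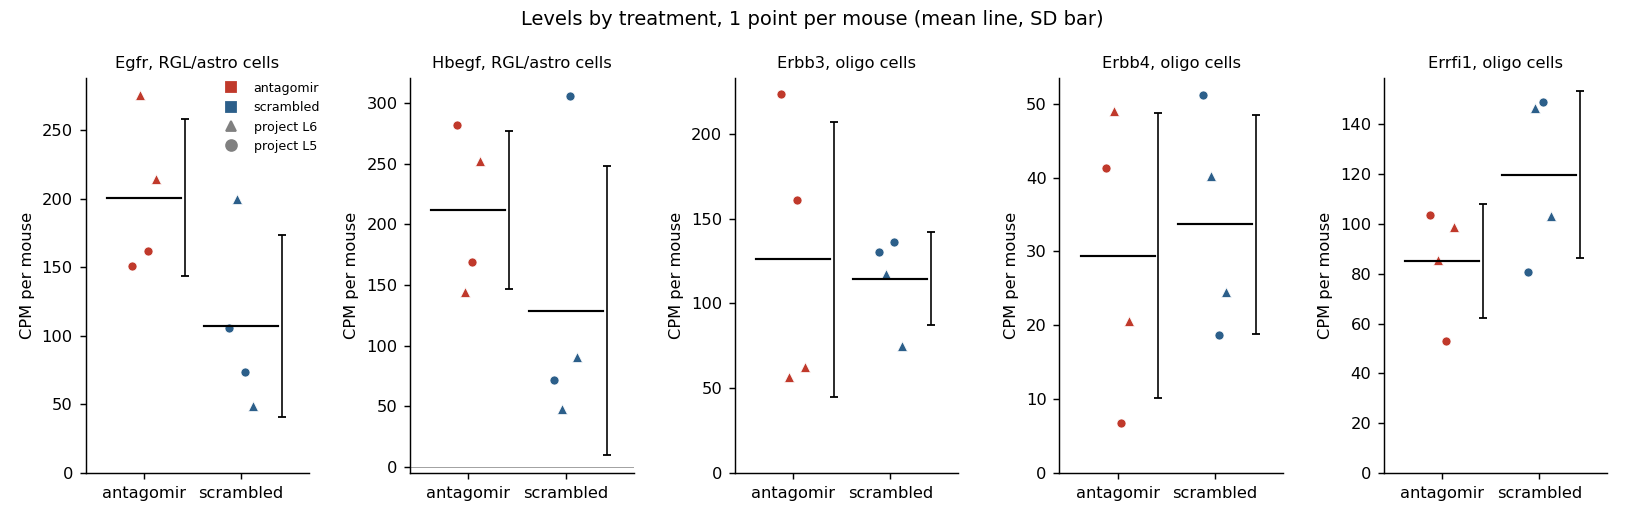
CPM of Egfr, Hbegf, Erbb3, Erbb4 and Errfi1 per mouse in the class named above each panel, with antagomir mice to the left of scrambled mice, the mean as a line, the SD as a bar and the project as point shape (RGL/astro, RGL or astrocyte-like; oligo, oligodendrocyte-like). The groups overlap in every panel, and Egfr has the higher mean in antagomir mice (201 against 107 CPM).

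Of the 8 members tested in all cells, Errfi1 had the smallest unadjusted p. Over all cells it was at 54.4, 39.6, 45.2 and 70.5 CPM in antagomir mice, against 126, 92.6, 114 and 63.1 CPM in scrambled mice. Antagomir mouse 8 lay above scrambled mouse 7, and the other 3 antagomir mice lay below every scrambled mouse. The log2 difference was -0.93 (SE 0.30, adjusted p = 1.00, edgeR), with means of 52.4 ± 13.5 and 98.8 ± 27.5 CPM in antagomir and scrambled mice. It was negative within each project (-0.48 in L6 and -1.31 in L5) and each sort day (-0.64 on day 2 and -1.25 on day 1). Oligodendrocyte-like cells gave 104, 85.5, 52.8 and 98.9 CPM of Errfi1 in antagomir mice, against 80.7, 147, 149 and 103 CPM in scrambled mice, and scrambled mouse 1 lay within the antagomir range. The log2 difference there was -0.51 (SE 0.29, 95% interval -1.15 to 0.13, adjusted p = 1.00, edgeR). Mural-like cells, in which scrambled mouse 1 reached 524 CPM, averaged 58.4 ± 63.0 CPM in antagomir and 196 ± 246 CPM in scrambled mice.

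The share of oligodendrocyte-like cells with an Errfi1 count separated the groups. It was 38.5, 32.0, 24.2 and 36.4% in antagomir mice, against 58.1, 62.2, 48.8 and 40.9% in scrambled mice, or 32.8 ± 6.29% and 52.5 ± 9.55%. All 4 antagomir mice lay below all 4 scrambled mice, and the gap between the nearest mice was from 38.5 to 40.9%. Of the 4 members tested in this class, Errfi1 was the 1 without overlap. Nrg2, which missed the filter on low counts, did not overlap either and lay in the other direction, at 2.56 to 8% in antagomir and 0 to 2.44% in scrambled mice, and it overlapped at 10 counts or more. Of the 10778 genes tested, 2.76% had no overlap in this share, 248 of them lower and 50 higher in antagomir mice. The median depth of these cells was 817174 counts in antagomir and 842219 counts in scrambled mice. Their median number of detected genes was 2884 and 3053 in the same order, and the part of this in the share was not tested. At 10 counts or more, where 2.5% of genes did not overlap, the means were 30.4 and 46.8% in antagomir and scrambled mice and the groups overlapped. After thinning every cell to 200000 counts, which left out the shallower cells, they were 33.0 and 48.6% and overlapped too. Over all cells the share was 18.8 ± 3.77% in antagomir and 29.4 ± 4.58% in scrambled mice, with 22.6% in the highest antagomir and 23.0% in the lowest scrambled mouse, and 2.12% of the 15447 genes tested did not overlap. At 10 counts or more Errfi1 overlapped there too, beside 1.97% of genes that did not. In RGL or astrocyte-like cells Errfi1 missed the filter on low counts. Its share was 3.50 ± 2.87% in antagomir and 8.75 ± 6.78% in scrambled mice at 1 count or more, with overlap, and at 10 counts or more it was in 0 of 94 cells of the antagomir mice, which allows a share of up to 3.19%, and in 3.70 to 18.8% of the cells of the scrambled mice. Of the genes tested in that class 1.99% and 1.74% did not overlap at these limits, and 6 cells make up the difference at 10 counts.

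**Figure D4:**
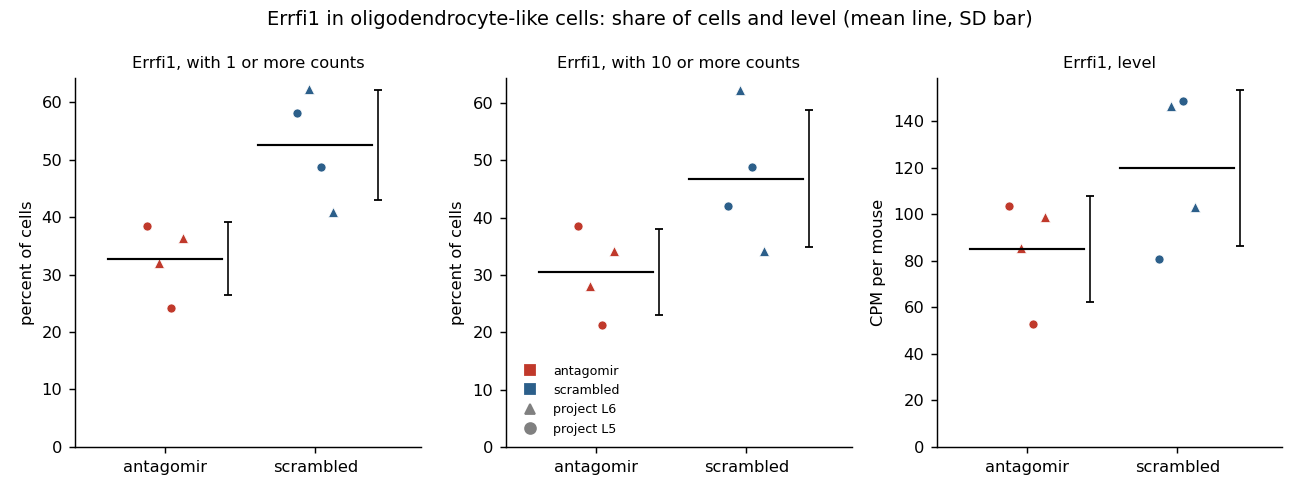
Percent of oligodendrocyte-like cells with Errfi1 counts per mouse, antagomir to the left of scrambled, with mean line and SD bar, and the Errfi1 level in CPM in the right panel; point shape gives the project. At 1 count or more the 4 antagomir mice (24.2 to 38.5%) lie below the 4 scrambled mice (40.9 to 62.2%), whereas the groups overlap at 10 counts or more.

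Few members could be followed in more than 1 class. Oligodendrocyte-like sums kept Erbb3, Erbb4, Btc and Errfi1 past the filter on low counts, and RGL or astrocyte-like sums kept Egfr, Erbb2, Hbegf and Nrg2. No member therefore passed it in both classes. An edgeR test of the difference in treatment response between these classes, with the mouse as block, called 0 of 13028 genes (0%). Nrg1 passed the filter in no population tested. Of the sparse members in all cells, Erbb2 had a log2 difference of 0.76 (SE 1.79), Nrg2 of 1.43 (SE 1.22) and Btc of -1.32 (SE 2.13), errors too wide to give a direction.

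The pathway genes around the members also gave no call after the antagomir: 0 genes of any of the 6 lists passed the threshold in any of the 3 populations, where 0% of all genes did. In all cells 14 of 19 feedback and turnover genes had negative log2 differences (median -0.24), beside a median of 0.00 over all genes tested. This lean was not shared by the classes, where 8 of 15 were negative in oligodendrocyte-like and 9 of 16 in RGL or astrocyte-like cells. In all cells those with the smallest unadjusted p in each direction were Spred1, a RAS inhibitor, at -1.21 (SE 0.66) and the ubiquitin ligase gene Cbl at 0.51 (SE 0.32). In oligodendrocyte-like cells 10 of 12 transcription targets had positive log2 differences (median 0.46, beside -0.01 over all genes), led by Jun at 0.58 (SE 0.66) and, among the negative ones, Etv5 at -1.32 (SE 1.53). Of the transcription targets tested, 7 of 14 were positive in all cells and 5 of 9 in RGL or astrocyte-like cells. In RGL or astrocyte-like cells Pik3r1, a regulatory subunit of PI3-kinase, was at -1.76 (SE 0.61, adjusted p = 1.00, edgeR).

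Erbb3 and Erbb4 in oligodendrocyte-like cells were also set against the handling labels. Mice 3, 4, 7 and 8 carried the project label L6 and mice 1, 2, 5 and 6 the label L5, and each sort day and project held 1 mouse of each treatment. Between projects 12 of 10778 genes passed the threshold in oligodendrocyte-like cells (0.111%) and 4 of 15447 in all cells (0.0259%), and between sort days 0% of genes did in both, with 341 and 640 genes at an unadjusted p under 0.05. No member was among those called.

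Erbb3 in oligodendrocyte-like cells was at 117, 56.6, 75.1 and 62.5 CPM in the L6 mice, against 130, 224, 136 and 161 CPM in the L5 mice. Every L6 mouse was below every L5 mouse, as was the case, in either direction, for 9.48% of the genes tested. The means were 77.8 ± 27.3 and 163 ± 42.8 CPM for L6 and L5, and the log2 difference was -1.17 (SE 0.29, adjusted p = 0.181, edgeR). Hbegf over all cells was at 44.6 ± 29.4 CPM in L6 and 82.3 ± 24.6 CPM in L5 (log2 difference -1.10, SE 0.35, adjusted p = 0.273, edgeR). The projects overlapped for Hbegf, and 9.89% of genes did not overlap between them in all cells. Of the transcription targets in oligodendrocyte-like cells, 10 of 12 had a negative difference between L6 and L5, with a median of -2.07 beside 0.01 over all genes and 0 past the threshold. Jun, a gene that dissociation also induces, was at -2.29 (SE 0.35, adjusted p = 0.110) over all cells.

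By sort day, Erbb4 in oligodendrocyte-like cells was at 18.7, 6.73, 24.4 and 20.5 CPM on day 2 (mice 5 to 8), against 51.2, 41.2, 40.3 and 49.0 CPM on day 1 (mice 1 to 4). The days did not overlap, as was the case for 2.34% of the genes tested. The means were 17.6 ± 7.63 and 45.4 ± 5.49 CPM on days 2 and 1, and the log2 difference was -1.49 (SE 0.46, adjusted p = 1.00, edgeR). Over all cells, where 2.64% of genes did not overlap between days, Erbb4 was at 13.0 ± 2.33 CPM on day 2 and 23.4 ± 2.01 CPM on day 1.

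**Figure D5:**
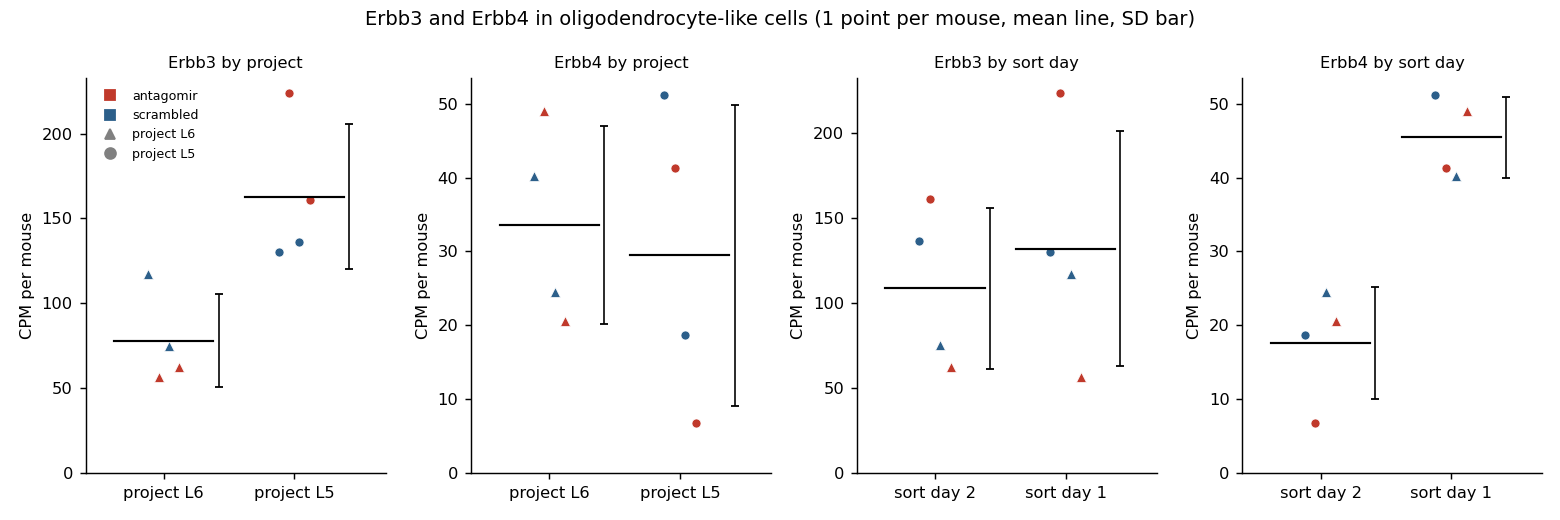
CPM of Erbb3 by project and of Erbb4 by sort day in oligodendrocyte-like cells, with the converse panels beside them; each point is 1 mouse, coloured by treatment and shaped by project, with mean line and SD bar. The L6 mice lie at 56.6 to 117 CPM of Erbb3 and all L5 mice above them, and the day 2 mice lie at 6.73 to 24.4 CPM of Erbb4 and all day 1 mice above them.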

How the data were processed

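Cells sorted by flow cytometry were made into Smart-seq2 libraries from poly(A) RNA, per the labels' protocols. The authors deposited raw read counts per gene and well, and a well table with mouse, treatment, sort day and project. The submitters' processing notes name STAR 2.5.2, featureCounts 1.5.1, Seurat 2.3.1 and mm10. No source used here gives the strand setting, so Egfr and its antisense gene Egfros, and Errfi1 and 1700045H11Rik, cannot be told apart. The same holds where Erbb2 overlaps Gm25048 and Mien1, Nrg1 overlaps Gm22140 and Gm26578, and Nrg2 overlaps 4930471G03Rik. There are no molecular identifiers, so intervals and limits (3 counts for a count of 0) cover counting error only.

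Members and lists were chosen with earlier results of these data known. Named genes were all 9 members, pathway genes past an adjusted p of 0.05 or else of smallest p in each direction (examples given in the text), and the 3 genes nearest to each member. Wells with 500 to 6000 genes were clustered without the members in scanpy 1.11.5 (Leiden resolution 1) and clusters named from at least 3 markers. No doublet caller was run. Shares were also taken after thinning to 200000 counts.

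Counts were summed per mouse, since the labels' 2 samples per treatment matched no particular mice, and tested in edgeR 4.0.16 (filterByExpr, TMM, quasi-likelihood, Benjamini-Hochberg over all genes tested) where every mouse had 10 cells of the class. Mice of 1 sort day and project were checked for shared deviations, with correlations of -0.00 to 0.15 over 12 pairs. In simulated data 100 genes were changed 2-fold and 100 others 4-fold. Of the 4-fold changes, 60% were recovered in all cells, 47% in oligodendrocyte-like cells and 1% in RGL or astrocyte-like cells. Of the 2-fold changes, 1%, 5% and 0% were recovered in the same order. Alternatives were other scaling, no filter, stricter wells, DESeq2 1.42.0, blocks and leaving out each mouse.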

Additional observations from a re-analysis of the deposited data

Results flagged for a closer look

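Of 45 groups of values per mouse examined, 6 held a mouse that stood far from the others by Dixon's 95% limit, which chance gives in about 1 of 20 groups.

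In mural-like cells, scrambled mouse 1 had 88.8 CPM of Egfr, against 0 to 0.472 CPM in the other scrambled mice. The same mouse had 524 CPM of Errfi1 in mural-like cells, against 0 to 247 CPM in the other 7 mice, and 130 CPM of Errfi1 in endothelial-like cells, against 0 to 41.7 CPM. Mural-like Errfi1 values therefore rest in large part on 1 mouse.

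In endothelial-like cells antagomir mouse 6 had 256 CPM of Erbb2, against 0 to 114 CPM in the others. Scrambled mouse 5 had 306 CPM of Hbegf in RGL or astrocyte-like cells, against 48.0 to 90.8 CPM in the other scrambled mice. Antagomir mouse 8 had 0.508 CPM of Errfi1 in endothelial-like cells, against 0 to 0.0850 CPM in the other antagomir mice. The values of these antagomir mice rest on 3 counts.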

How the results depend on the processing

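The numbers of genes called between treatments were 0 in all 3 populations under every edgeR setting run, while DESeq2 called 10 in all cells, 13 in oligodendrocyte-like cells and 8 in RGL or astrocyte-like cells. Between projects the 4 calls in all cells became 7 with no filter, 0 in wells with 1000 to 6000 genes and 0 to 0 without each mouse in turn, and the 12 in oligodendrocyte-like cells became 1 to 5. With the replicate block of sort day and project, the treatment calls were 0, 0 and 0. The pairing is by handling, and the block turned the Erbb3 difference in oligodendrocyte-like cells to -0.091.

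The log2 difference of Erbb3 between treatments had no stable direction. In oligodendrocyte-like cells it was -0.10 with project as a covariate, -0.68 within L6 and -0.33 to 0.37 without each mouse, and in all cells 0.48 within L5, 0.080 within sort day 1 and -0.57 to 0.26 without each mouse. Erbb4 between treatments in oligodendrocyte-like cells was 0.11 within L6 and -0.56 to 0.10 without each mouse. Values near 0 also changed sign between sort days for Erbb3 (-0.50 to 0.33) and Errfi1 (-0.34 to 0.24) in all cells and Errfi1 in oligodendrocyte-like cells (-0.38 to 0.14), between projects for Erbb4 (-0.011 to 0.68) and Errfi1 (-0.10 to 0.42) in oligodendrocyte-like cells, all without each mouse, and for Hbegf in all cells by sort day (-0.00027 in the stricter wells). The cause was not tested. Without each mouse, Egfr between treatments ran from 0.83 to 1.54 in all cells and from 0.66 to 1.35 in RGL or astrocyte-like cells, and Errfi1 in all cells from -1.14 to -0.80. The share of oligodendrocyte-like cells with Erbb4 was 21.2% at 10 counts or more.

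The spread between mice limits these tests: in RGL or astrocyte-like cells the 95% interval of the Hbegf log2 difference ran from -0.55 to 1.91, and an adjusted p of 1.00 does not show that Egfr or Hbegf was the same in both groups.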
